A study of Mus musculus with 18 samples.

Results

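Gene expression was compared between 6 mouse melanomas treated with the MEK inhibitor AZD6244 and 6 treated with vehicle. Both sets were taken by the tumour titles, and together they are 12 of the 18 arrays of the series. All tumours grew from 1 cell line, iNRAS-475, in which an NRAS oncogene is kept on by doxycycline, after injection into the skin of nude mice. Every host drank water with 2 mg/ml doxycycline, and by this design both the vehicle and the inhibitor arm kept the inducer of the oncogene. Treatment began at tumour volumes of 200 to 500 mm3, after 6 weeks of growth. The inhibitor arm received AZD6244 (selumetinib, which binds MEK1 and MEK2 beside the ATP pocket) at 100 mg/kg for 4 days. The labels give no duration for the vehicle arm. A further 6 tumours lost doxycycline for 4 days, here called NRAS-off, and they serve only for reference and for the estimate of the spread. Each array read a distinct tumour, which makes the 6 per arm biological replicates of 1 line. The promoter that drives the oncogene is not given in the sources used here. Nude mice lack a working thymus and so lack mature T cells, while their macrophages, mast cells, NK cells and stroma remain.

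RAS proteins, when bound to GTP, recruit RAF kinases, which phosphorylate MEK1 and MEK2, which in turn phosphorylate the kinases ERK1 and ERK2. ERK acts on transcription factors of the ETS, AP-1, EGR and MYC families, and also induces phosphatases and adaptor proteins that damp the same cascade. NRAS is a frequently mutated oncogene of melanoma, and RAS feeds other effectors besides RAF, among them phosphoinositide 3-kinase (PI3K). A MEK inhibitor therefore cuts 1 branch below an oncogene whose inducer stays present.

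The arrays were one-colour Affymetrix arrays, and values are probe set intensities, 1 probe set per gene. Array medians lay between 72.3 and 78.5, and the number of arrays limits the precision. Pairs of vehicle tumours correlated at 0.9873 to 0.9955 over genes, pairs of inhibitor tumours at 0.9868 to 0.9967, and vehicle with inhibitor tumours at 0.9608 to 0.9782. The first principal component of the 12 tumours held 63.6% of the variance and separated the arms. As a check of the tissue label, the pigment cell lineage factor Sox10 read between 8258 and 10311 (median 9162) in the vehicle tumours and between 11503 and 16608 (median 12691) in the MEK inhibitor tumours. The lineage factor Mitf read between 513 and 549 (median 544) in the vehicle tumours and between 529 and 643 (median 569) in the MEK inhibitor tumours. The pigment enzyme genes Tyr and Tyrp1 were at or below the filter on low values. In bulk tumour RNA, fewer cells of a type and less RNA per cell cannot be told apart.

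Of 15005 genes tested, 3645 (24.3%) were higher and 3142 (20.9%) lower in the inhibitor tumours at a limma adjusted p under 0.05, or 45.2% in either direction. These percentages are the background for every count of genes below, and "rose" and "fell" are used of genes past that threshold. Changes are differences in log2(intensity + 16) ± SE, with 6 tumours per arm. Of the changed genes, 882 rose and 845 fell by at least 1.5-fold, 278 and 314 by at least 2-fold, and 30 and 47 by at least 4-fold. The middle 90% of all changes lay between −0.64 and 0.64, with a median of 0.01. The inhibitor and vehicle tumours did not overlap for 3825 genes (25.5%), 1924 higher (12.8%) and 1901 lower (12.7%) in the inhibitor arm.

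**Figure D1:**
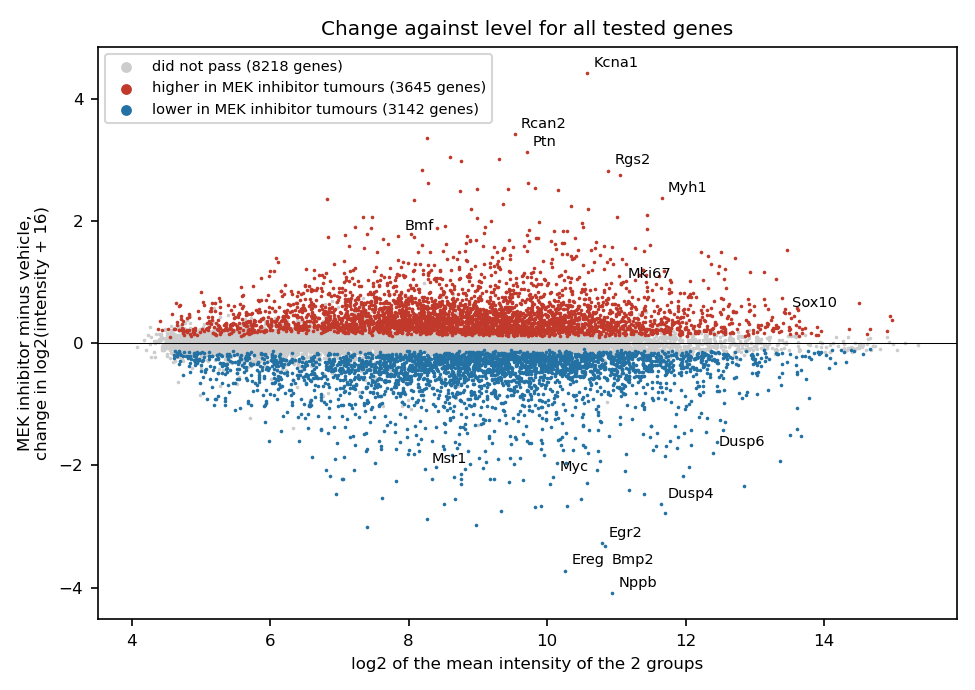
Change in log2(intensity + 16), MEK inhibitor minus vehicle, against log2 of the mean intensity of both arms, for each of the 15005 genes tested. Red points (3645) were higher and blue points (3142) lower in the inhibitor tumours, grey points did not pass, and the named genes are described in the text.

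The feedback inhibitors of ERK were the first group examined, since their transcripts are used as a readout of ERK output. Of 19 tested dual specificity phosphatases, Sprouty and Spred proteins, 14 fell and none rose, with a median change of −0.73. Dusp6, a cytoplasmic phosphatase selective for ERK, read between 7412 and 9135 (median 8337) in the vehicle tumours and between 1941 and 2807 (median 2534) in the MEK inhibitor tumours. Every inhibitor tumour lay below every vehicle tumour. Dusp6 fell by 1.79 ± 0.14, a 3.45-fold lower mean intensity (limma adjusted p = 6.31e-09). Dusp4, a nuclear phosphatase of ERK, read between 4295 and 6040.3 (median 5662) in the vehicle tumours and between 762 and 1059.6 (median 852) in the MEK inhibitor tumours, again without overlap, and fell by 2.63 ± 0.17 (limma adjusted p = 1.09e-09). Spry4, a Sprouty adaptor that damps receptor signals to RAS, read between 427 and 773 (median 471) in the vehicle tumours and between 80.3 and 125 (median 98.9) in the MEK inhibitor tumours and fell by 2.23 ± 0.15. The nuclear phosphatase genes Dusp2 and Dusp5 had larger falls than Dusp6, at −2.98 ± 0.18 and −2.69 ± 0.17, and Dusp10, whose product prefers the stress kinases p38 and JNK, fell by 1.88 ± 0.14. Among the members that did not pass were Dusp1 (−0.04 ± 0.08, limma adjusted p = 0.705) and Dusp7 (0.03 ± 0.12, limma adjusted p = 0.848). Dusp1, an immediate early phosphatase, read between 1038 and 1437 (median 1383) in the vehicle tumours and between 1214 and 1359 (median 1265) in the MEK inhibitor tumours, and the arms overlapped.

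Transcription factors below ERK fell in part. Of 24 tested ETS, AP-1, EGR, MYC and related factors, 14 fell and 3 rose (median −0.36). The ETS factors Etv4 and Etv5, which are induced by ERK and used as its readout, read lower in every inhibitor tumour. Etv4 lay between 712 and 794 (median 760.2) in the vehicle tumours and between 211 and 378 (median 295) in the MEK inhibitor tumours and fell by 1.32 ± 0.11. Etv5 lay between 1012 and 1326 (median 1058) in the vehicle tumours and between 280.4 and 606 (median 342) in the MEK inhibitor tumours and fell by 1.53 ± 0.14. The early growth response genes had larger falls. Egr2 read between 2769 and 4123 (median 3155) in the vehicle tumours and between 225 and 407 (median 343) in the MEK inhibitor tumours, a 9.97-fold lower mean, and fell by 3.27 ± 0.14 (limma adjusted p = 8.33e-12). Egr3 fell by 2.54 ± 0.19. In the AP-1 family, which binds DNA as FOS and JUN dimers, the FOS-related gene Fosl1 read between 817 and 1256 (median 982) in the vehicle tumours and between 166 and 265 (median 186) in the MEK inhibitor tumours and fell by 2.23 ± 0.15. Fos itself read between 3912 and 7889.9 (median 4917) in the vehicle tumours and between 4339 and 5223 (median 4958) in the MEK inhibitor tumours, so the arms overlapped, and its change of −0.09 did not pass (limma adjusted p = 0.783). The AP-1 factor gene Fosl2 did not pass either, at 0.09 (limma adjusted p = 0.436). The small MAF factor gene Maff fell by 1.74 ± 0.15.

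The Egr2 promoter is shown because this gene had the largest fall among the transcription factors and because the serum response factor, a partner of ERK-driven ETS factors, binds the CArG motif. The 250 bases before the RefSeq start of Egr2 (GRCm38.p6, chr10:67537316-67537565, plus strand) are given 5′ to 3′, with the CArG motif in capitals.
Egr2: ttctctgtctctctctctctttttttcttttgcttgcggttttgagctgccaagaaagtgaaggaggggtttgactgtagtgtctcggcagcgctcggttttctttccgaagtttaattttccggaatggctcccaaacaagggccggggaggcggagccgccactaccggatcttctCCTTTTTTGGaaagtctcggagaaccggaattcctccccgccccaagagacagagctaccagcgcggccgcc
The motif begins 72 bases before the start. The list had 24 promoters from 17 matched genes, since a gene can have several. Of these promoters 5 (20.8%) held a CArG motif on either strand within 300 bases (250 before to 50 after the start). The share was 1.6% of all 32851 RefSeq promoters and 1.3% of those of tested genes. A match is a stretch of letters and does not show binding.

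Other transcripts commonly used as readouts of ERK fell with few exceptions: 17 of 23 fell and 2 rose (median −0.73). Phlda2, which encodes a small pleckstrin homology domain protein, read between 443 and 628 (median 562) in the vehicle tumours and between 47.4 and 96.6 (median 55.0) in the MEK inhibitor tumours and fell by 2.88 ± 0.12 (limma adjusted p = 7.74e-12). The cytokine gene Lif fell by 2.05 ± 0.20, the urokinase receptor gene Plaur fell by 1.94 ± 0.09 and the fatty acid elongase gene Elovl6 fell by 1.63 ± 0.09. Hmga2, an embryonic chromatin protein, read between 7735 and 9124 (median 8373) in the vehicle tumours and between 1997 and 4319.5 (median 2377) in the MEK inhibitor tumours and fell by 1.61 ± 0.19. The calcium-gated potassium channel gene Kcnn4 fell by 1.35 ± 0.09. Ccnd1, which encodes the cyclin D1 that opens the G1 to S step, remained among the most intense transcripts. It read between 15273 and 17959 (median 16722) in the vehicle tumours and between 6309 and 10106 (median 8522) in the MEK inhibitor tumours, with no overlap, and fell by 1.05 ± 0.13 (limma adjusted p = 1.68e-06).

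**Figure D2:**
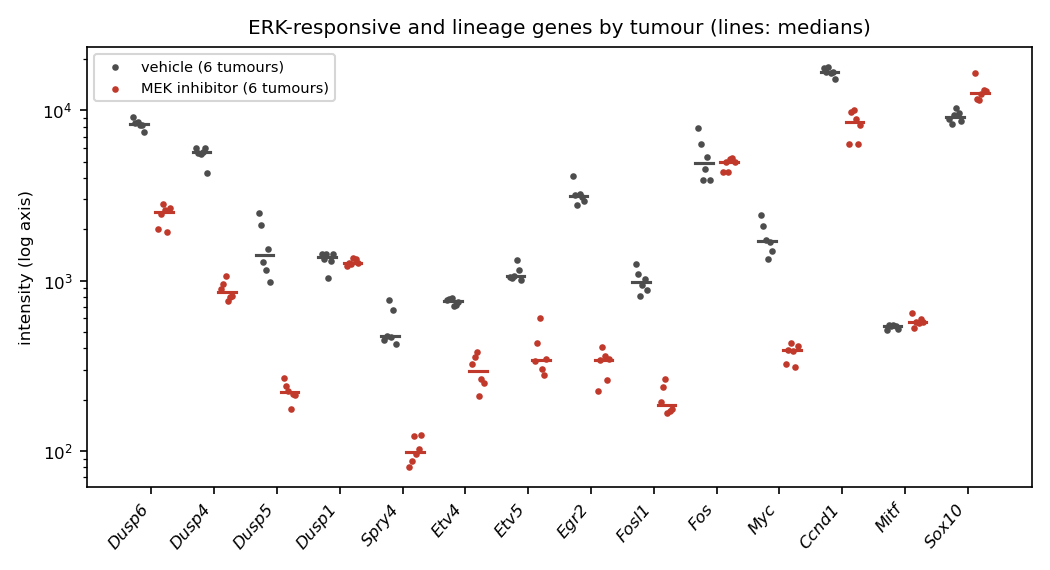
Intensity on a log axis in each of 6 vehicle (grey) and 6 MEK inhibitor tumours (red) for ERK-responsive and lineage genes, with a line at each median. Dusp6, Dusp4, Dusp5, Spry4, Etv4, Etv5, Egr2, Fosl1, Myc and Ccnd1 were lower in every inhibitor tumour than in any vehicle tumour, Sox10 was higher, and Dusp1, Fos and Mitf overlapped.

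Members of the cascade itself showed no common direction. Of 24 GTPases, kinases and scaffolds tested, 6 rose and 6 fell (median −0.01). The gene for the drug's target MEK1, Map2k1, read between 2778 and 3291 (median 3190.3) in the vehicle tumours and between 2817 and 3549.9 (median 2993) in the MEK inhibitor tumours and did not pass (−0.02, limma adjusted p = 0.825). Map2k2, which encodes MEK2, did not pass at −0.04 (limma adjusted p = 0.616), but passed at −0.13 with the mean of all its probe sets (limma adjusted p = 0.0247). Braf, a RAF kinase, read between 496 and 637 (median 574) in the vehicle tumours and between 557 and 677 (median 568) in the MEK inhibitor tumours (0.04, limma adjusted p = 0.646). The mouse Nras probe set read between 2184 and 2524 (median 2291) in the vehicle tumours and between 1858 and 2229 (median 1953) in the MEK inhibitor tumours and fell by 0.23 ± 0.05, and lay at 1853 to 2009 (median 1914) in NRAS-off tumours, which did not pass against the inhibitor tumours (−0.05 ± 0.05, limma adjusted p = 0.414). The labels do not say whether it reads the oncogene, so whether oncogene transcript differed between the arms was not tested. Larger falls were those of the RAS-related GTPase genes Mras (−0.93 ± 0.07) and Rras2 (−0.67 ± 0.09) and of the RAS GTPase-activating protein gene Rasa1 (−0.50 ± 0.06). Dab2ip, another RAS GTPase-activating protein, rose by 0.63 ± 0.07.

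Receptor tyrosine kinases, which sit upstream of RAS, had 9 higher and 6 lower members of 28 (median 0.05). The epidermal growth factor receptor gene Egfr rose by 0.83 ± 0.14 and the collagen receptor gene Ddr1 rose by 0.61 ± 0.07. The glial neurotrophic factor receptor gene Ret fell by 1.12 ± 0.18 and the receptor gene Axl fell by 0.70 ± 0.07. Among 33 growth factor ligands 9 rose and 8 fell (median 0.08). The 6 tested genes of EGFR ligands differed. Ereg, which encodes epiregulin, read between 1858 and 2806 (median 2333) in the vehicle tumours and between 106 and 231 (median 150.5) in the MEK inhibitor tumours, a 14.2-fold lower mean with no overlap, and fell by 3.72 ± 0.31 (limma adjusted p = 1.84e-08). The EGFR ligand genes Btc and Hbegf changed by −1.96 ± 0.17 and −1.47 ± 0.12. The others, named after their values were seen, were Epgn (−0.57 ± 0.23, limma adjusted p = 0.0471), Egf (0.22 ± 0.08, limma adjusted p = 0.0432) and Tgfa (−0.15 ± 0.13, limma adjusted p = 0.381). When 1 tumour was left out, the call of Epgn held only without inhibitor replicate 4 or vehicle replicate 3, and that of Egf only without inhibitor replicate 2 or 3 or vehicle replicate 4 or 6. In the opposite direction, Ptn, which encodes the heparin-binding factor pleiotrophin, read between 63.3 and 265 (median 146) in the vehicle tumours and between 608 and 2011 (median 1729) in the MEK inhibitor tumours and rose by 3.13 ± 0.29 (limma adjusted p = 6.37e-08). Fgf13, an intracellular member of the fibroblast growth factor family, rose by 1.77 ± 0.19.

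Ligands of the TGF-beta superfamily moved in both directions. Of 43 ligands, receptors, SMADs and targets tested, 11 rose and 14 fell (median −0.05). Bmp2, a bone morphogenetic protein, read between 2193 and 4139 (median 3435) in the vehicle tumours and between 216 and 357 (median 338) in the MEK inhibitor tumours, a 10.5-fold lower mean, and fell by 3.31 ± 0.14 (limma adjusted p = 9.04e-12). Id1, a helix-loop-helix gene induced by BMP signals, fell by 1.93 ± 0.18, and the activin subunit gene Inhba fell by 2.40 ± 0.24. The ligand genes Tgfb2 and Gdf10 rose, by 1.43 ± 0.11 and 1.56 ± 0.26. The shared mediator gene Smad4 did not pass (0.05, limma adjusted p = 0.442). In the NOTCH pathway, a system of contact signals between cells, 10 of 23 fell and 4 rose (median −0.11). The ligand gene Jag1 fell by 1.46 ± 0.11, the receptor gene Notch4 fell by 1.23 ± 0.13, and the target genes Hey1 and Hes1 changed by −1.21 ± 0.10 and −0.87 ± 0.08.

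Myc, the growth regulator that ERK supports, read between 1336 and 2419.8 (median 1711) in the vehicle tumours and between 313 and 429.7 (median 390.1) in the MEK inhibitor tumours. Every inhibitor tumour lay below every vehicle tumour, the mean was 4.77-fold lower, and Myc fell by 2.19 ± 0.13 (limma adjusted p = 4.26e-10). The genes of its network moved in both directions: of 13 tested 7 rose and 3 fell (median 0.27). Max, the obligate partner, fell by 0.76 ± 0.12. Mycl, a Myc paralog, read between 43.3 and 63.0 (median 61.8) in the vehicle tumours and between 167 and 428 (median 295) in the MEK inhibitor tumours and rose by 2.07 ± 0.21, and the antagonists Mxd4 and Mxi1 rose by 0.90 ± 0.08 and 0.56 ± 0.12.

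Genes of ribosome production, which include many targets of MYC, fell broadly. Of 70 tested nucleolar factors for ribosomal RNA synthesis and assembly, 59 fell and none rose (median −0.49, against 0.01 over all genes), and 52 of the falls showed no overlap. The level per tumour, taken as the median over members minus the vehicle mean, lay between −0.02 and 0.03 in vehicle and between −0.62 and −0.41 in inhibitor tumours. Rrp12, an assembly factor, read between 166 and 224 (median 191) in the vehicle tumours and between 72.9 and 109 (median 85.3) in the MEK inhibitor tumours and fell by 0.99 ± 0.08. Tsr1, needed for the small subunit, read between 1281 and 1424 (median 1356) in the vehicle tumours and between 640.0 and 775 (median 706) in the MEK inhibitor tumours and fell by 0.92 ± 0.06. Gar1, a core protein of the particles that modify ribosomal RNA, fell by 0.94 ± 0.05, Rrp15 fell by 0.91 ± 0.06 and Grwd1 fell by 0.87 ± 0.05. The abundant nucleolar protein gene Npm1 did not pass (−0.05, limma adjusted p = 0.507), though it did at −0.17 with the mean of its probe sets.

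The promoter of Nop2, a ribosomal RNA methyltransferase of the nucleolus, is shown as the member with the largest fall whose window before the start holds the E-box CACGTG, which MYC and MAX bind. It is the 11th largest fall of the list, at −0.83 ± 0.07. The 250 bases before the RefSeq start (GRCm38.p6, chr6:125131633-125131882, plus strand) are given 5′ to 3′ with the E-box in capitals.
Nop2: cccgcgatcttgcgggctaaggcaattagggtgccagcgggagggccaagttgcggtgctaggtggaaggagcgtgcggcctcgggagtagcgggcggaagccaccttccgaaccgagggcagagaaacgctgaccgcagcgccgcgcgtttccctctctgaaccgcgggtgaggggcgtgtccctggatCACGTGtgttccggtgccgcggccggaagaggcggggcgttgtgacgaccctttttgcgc
The E-box begins 60 bases before the start. Of 68 promoters of 59 nucleolar genes 11 (16.2%) held CACGTG within 300 bases, against 7.2% of all RefSeq promoters and 9.3% of those of tested genes. The ETS motif CCGGAA, on either strand, was in 45.6% of the same promoters, against 14.9% of all and 23.4% of those of tested genes. This motif was also frequent in lists that rose, at 54.5% for mitotic kinases and 39.6% for kinetochore and spindle genes. In the ERK lists that fell its share was 11.8% for feedback genes, 16.7% for transcription factors and 9.5% for effectors.

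The rest of the protein synthesis apparatus fell to differing degrees. Of 22 cytosolic aminoacyl-tRNA synthetases and their cofactors, which load amino acids onto tRNA, 21 fell and none rose (median −0.51), 20 of them without overlap. Eef1e1, a cofactor of the synthetase complex, fell by 1.31 ± 0.09, and the isoleucine, cysteine and arginine synthetase genes Iars, Cars and Rars changed by −0.93 ± 0.05, −0.88 ± 0.07 and −0.82 ± 0.06. Of 76 mitochondrial ribosomal proteins 41 fell and none rose (median −0.17), with Mrps18b at −0.67 ± 0.05 and Mrps10 at −0.64 ± 0.08. Of 61 translation factors 26 fell and 5 rose (median −0.13). Eif1a, an initiation factor, fell by 0.98 ± 0.08, and Eif4ebp1, a repressor of cap-dependent initiation, fell by 0.81 ± 0.07. Eef1a1, the main elongation factor, did not pass (0.02, limma adjusted p = 0.731). Structural proteins of the cytosolic ribosome had the smallest median of these lists. Of 49 tested, 18 fell and 1 rose (median −0.08), and 10 fell after quantile normalization. The list also holds genes of ribosomal protein-like paralogs, which are among its changed members. Rps25 fell by 0.55 ± 0.05, while the intense Rps29 did not pass (−0.01, limma adjusted p = 0.83).

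Genes of amino acid supply, listed with other targets of the stress factor ATF4, fell as well. The list holds amino acid uptake, serine and one-carbon synthesis and further ATF4 targets, and it shares members with other lists, such as Ddit4 with the PI3K and FOXO list. Of its 31 genes 21 fell and 3 rose (median −0.51), or 5 rose without inhibitor replicate 6. Chac1, an enzyme that degrades glutathione, read between 456 and 935 (median 672) in the vehicle tumours and between 101 and 162 (median 144) in the MEK inhibitor tumours and fell by 2.18 ± 0.15. Trib3, a pseudokinase, fell by 1.82 ± 0.13, and the cationic amino acid transporter gene Slc7a1 fell by 1.55 ± 0.09. The mitochondrial one-carbon enzyme gene Mthfd2 fell by 1.31 ± 0.08 and its partner Shmt2 fell by 0.70 ± 0.09. Of the 3 rises, Atf3 and Ddit4 were the larger. Atf3, a transcription factor, read between 169 and 262 (median 211) in the vehicle tumours and between 733 and 1518 (median 1066) in the MEK inhibitor tumours and rose by 2.28 ± 0.15, and Ddit4, an inhibitor of mTORC1, read between 836 and 1125 (median 961) in the vehicle tumours and between 2220.2 and 3637 (median 3038) in the MEK inhibitor tumours and rose by 1.57 ± 0.14. Of 38 proteasome subunits 24 fell and 1 rose (median −0.21), among them the lid subunit genes Psmd7 (−0.62 ± 0.09) and Psmd14 (−0.52 ± 0.06).

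Regulators and targets of the PI3K and FOXO pathway, which runs parallel to the MEK branch, rose. FOXO factors are kept out of the nucleus by AKT. Of 31 tested genes 18 rose and 2 fell (median 0.43), and the level per tumour lay between −0.09 and 0.08 in vehicle and between 0.27 and 0.45 in inhibitor tumours. Deptor, an inhibitor of mTOR, read between 328 and 517 (median 419) in the vehicle tumours and between 1224 and 1535 (median 1431) in the MEK inhibitor tumours and rose by 1.72 ± 0.10 (limma adjusted p = 1.65e-10). Fbxo32, a ubiquitin ligase gene induced by FOXO, read between 295 and 346 (median 332) in the vehicle tumours and between 824 and 1274 (median 927) in the MEK inhibitor tumours and rose by 1.56 ± 0.09. Pik3ip1, a membrane inhibitor of PI3K, rose by 1.40 ± 0.11, and Sesn1, a stress-induced inhibitor of mTORC1, rose by 0.80 ± 0.10. Against the direction of the list, the PI3K catalytic subunit gene Pik3cb read between 276 and 420.1 (median 330.5) in the vehicle tumours and between 99.7 and 131 (median 108) in the MEK inhibitor tumours and fell by 1.45 ± 0.08. The kinase gene Akt1 did not pass (0.02, limma adjusted p = 0.8).

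Among initiators of mitochondrial cell death with a BH3 domain, 5 of 9 rose and 2 fell (median 0.30). Bmf read between 74.2 and 111 (median 101) in the vehicle tumours and between 333 and 421 (median 358) in the MEK inhibitor tumours, a 3.75-fold higher mean, and rose by 1.75 ± 0.09 (limma adjusted p = 3.72e-11). Bcl2l11, which encodes BIM, a protein that ERK marks for degradation, read between 1011 and 1363 (median 1141) in the vehicle tumours and between 2265 and 4317 (median 3048) in the MEK inhibitor tumours and rose by 1.38 ± 0.12. Bik rose by 0.30 ± 0.07 and Pmaip1, which encodes NOXA, fell by 0.32 ± 0.09. Bad did not pass (−0.01, limma adjusted p = 0.849). Of 15 survival, effector and caspase regulators 3 rose and 2 fell (median −0.01). The survival gene Bcl2l1, which encodes BCL-XL, fell by 0.48 ± 0.07, while Diablo and Birc2 rose by 0.48 ± 0.06 and 0.49 ± 0.08. Without vehicle replicate 2, 5 genes of this list rose.

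Genes of the cell cycle rose from S phase onward, while G1 genes were mixed. Of 13 D cyclins and G1 drivers 2 rose and 3 fell (median 0.04). Beside Ccnd1, E2f3 fell by 0.33 ± 0.06 and Cdc25a fell by 0.39 ± 0.10, Ccne2, a cyclin E gene, rose by 0.60 ± 0.15, and Cdk4 did not pass (0.04, limma adjusted p = 0.605). Of 15 CDK inhibitors and RB family genes 6 rose and 4 fell (median 0.00). Cdkn2b, which encodes p15, read between 3056 and 3658 (median 3219.7) in the vehicle tumours and between 1273 and 1883 (median 1588) in the MEK inhibitor tumours and fell by 1.05 ± 0.08. Cdkn2c, which encodes p18, read between 703 and 969 (median 844) in the vehicle tumours and between 1377 and 1837 (median 1592) in the MEK inhibitor tumours and rose by 0.91 ± 0.08. Cdkn1a, which encodes p21, fell by 0.44 ± 0.07, and Rb1 rose by 0.52 ± 0.08. Cdkn1b, which encodes p27, read between 1741 and 2487 (median 2168) in the vehicle tumours and between 1903 and 2192 (median 1943) in the MEK inhibitor tumours and did not pass (−0.11, limma adjusted p = 0.34), though it passed at −0.38 with the mean of its probe sets (limma adjusted p = 0.000676).

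Mitotic genes rose broadly. Of 55 tested kinetochore, spindle and cytokinesis genes 48 rose and none fell (median 0.64), 27 without overlap. Of 27 mitotic kinases and entry factors 20 rose and none fell (median 0.48), 7 without overlap. Mki67, the proliferation antigen that coats mitotic chromosomes, read between 1232 and 1649.9 (median 1399) in the vehicle tumours and between 2046 and 3329 (median 2957) in the MEK inhibitor tumours, with no overlap, and rose by 0.97 ± 0.13 (limma adjusted p = 4.7e-06). Aspm, a spindle pole protein, read between 430.2 and 609.8 (median 493) in the vehicle tumours and between 808 and 1400.2 (median 1159) in the MEK inhibitor tumours and rose by 1.12 ± 0.14 (limma adjusted p = 4.3e-06). Nusap1, which bundles spindle microtubules, rose by 1.00 ± 0.14, Cenpf, a kinetochore protein, rose by 0.93 ± 0.16, and Ckap2 rose by 0.89 ± 0.14. The cyclin A2 gene Ccna2 read between 819 and 1203 (median 1021) in the vehicle tumours and between 1306 and 2264 (median 1885) in the MEK inhibitor tumours and rose by 0.84 ± 0.13, and the anaphase activator gene Cdc20 rose by 0.66 ± 0.11. The checkpoint kinase gene Bub1 rose by 0.62 ± 0.19 with overlap between the arms, and its partner Bub3 did not pass (−0.08, limma adjusted p = 0.211).

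The promoter of Mki67 is shown as the mitotic list's member with the largest rise whose window before the start holds the cell cycle homology region TTTGAA, through which the DREAM complex acts on G2 and M phase genes. The 250 bases before the RefSeq start (GRCm38.p6, chr7:135716380-135716629, minus strand) are given 5′ to 3′ with both motifs in capitals.
Mki67: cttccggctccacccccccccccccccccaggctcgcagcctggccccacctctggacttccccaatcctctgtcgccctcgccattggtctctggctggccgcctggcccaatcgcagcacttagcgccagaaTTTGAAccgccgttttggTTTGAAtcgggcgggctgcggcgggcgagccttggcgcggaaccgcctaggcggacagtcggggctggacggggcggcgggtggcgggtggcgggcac
The nearer motif begins 98 bases before the start. Of 53 promoters of 48 genes of the kinetochore and spindle list 33 (62.3%) held TTTGAA on either strand within 300 bases. The share was 17.9% of all RefSeq promoters and 12.4% of those of tested genes. The CCAAT box was in 73.6%, against 37.4% and 37.0%. Both motifs were searched by their letters alone.

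The median rise of S phase genes was smaller. Of 46 replication origin and fork genes 28 rose and 1 fell (median 0.34). Dscc1, which helps load the replication clamp, read between 86.2 and 116 (median 97.2) in the vehicle tumours and between 152 and 282 (median 198) in the MEK inhibitor tumours and rose by 0.95 ± 0.14. The primase gene Prim1 rose by 0.74 ± 0.12, the polymerase genes Pole and Pold1 changed by 0.74 ± 0.14 and 0.60 ± 0.07, and the DNA ligase gene Lig1 rose by 0.59 ± 0.08. The clamp gene Pcna did not pass (0.18, limma adjusted p = 0.0585), and passed without any 1 of inhibitor replicates 1 and 5 and vehicle replicates 1 and 2 (0.20 to 0.22). Of 33 DNA repair and checkpoint genes 20 rose and 1 fell (median 0.29), with Rad54b at 1.11 ± 0.11 and Brca1 at 0.66 ± 0.13. Of 21 tested histone genes 13 rose and 1 fell (median 0.35), among them the linker histone gene H1f2 (1.12 ± 0.08) and the variant gene H2al3, which read between 19.2 and 55.0 (median 39.3) in the vehicle tumours and between 366 and 884 (median 548) in the MEK inhibitor tumours and rose by 3.36 ± 0.28. The vehicle values of H2al3 and of Rad54b (24.7 to 39.0) lay near the filter intensity of 23.5. The sizes of these rises therefore depend on background and on the pseudocount. Nucleotide supply genes fell more often than they rose. Of 30 enzymes of purine, pyrimidine and deoxynucleotide synthesis 7 rose and 13 fell (median −0.12), with the cytidine triphosphate synthase gene Ctps at −0.61 ± 0.09, the adenylosuccinate synthase gene Adss at −0.63 ± 0.08 and the salvage kinase gene Dck at 0.75 ± 0.14.

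The NRAS-off tumours gave a reference for growth genes, since they share the line and the host strain. The contrasts of both treated arms against vehicle share the same 6 vehicle tumours, so values are set side by side and the difference is taken from the direct contrast of the treated arms. Over all genes that direct contrast called 47% in either direction, 24.3% higher and 22.7% lower in NRAS-off tumours. Of the 55 kinetochore and spindle genes, 54 were lower in NRAS-off than in inhibitor tumours and none higher (median −1.90). Of 27 mitotic kinases 24 were lower (median −1.87), and of 46 replication genes 44 were lower (median −1.07). Histone genes did not follow the replication genes: of 21, 9 were lower and 1 higher in NRAS-off than in inhibitor tumours (median −0.15). Against vehicle, the NRAS-off medians were 0.23 for histone genes and −0.79 for replication genes. Mki67 lay at 368 to 617 (median 529.6) in NRAS-off tumours, which was −2.47 ± 0.13 from the inhibitor tumours (limma adjusted p = 4.02e-11). Ccna2 lay at 245 to 366 (median 286), or −2.57 ± 0.13 (limma adjusted p = 4.21e-11). The nucleolar list had no common direction in this contrast: 16 were higher and 14 lower of 70, with a median difference of 0.00. These shares were near those over all genes. Of 22 synthetases 14 were lower in NRAS-off tumours (median −0.19). Myc lay at 376 to 641 (median 473), or 0.35 ± 0.13 from the inhibitor tumours (limma adjusted p = 0.0403).

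**Figure D3:**
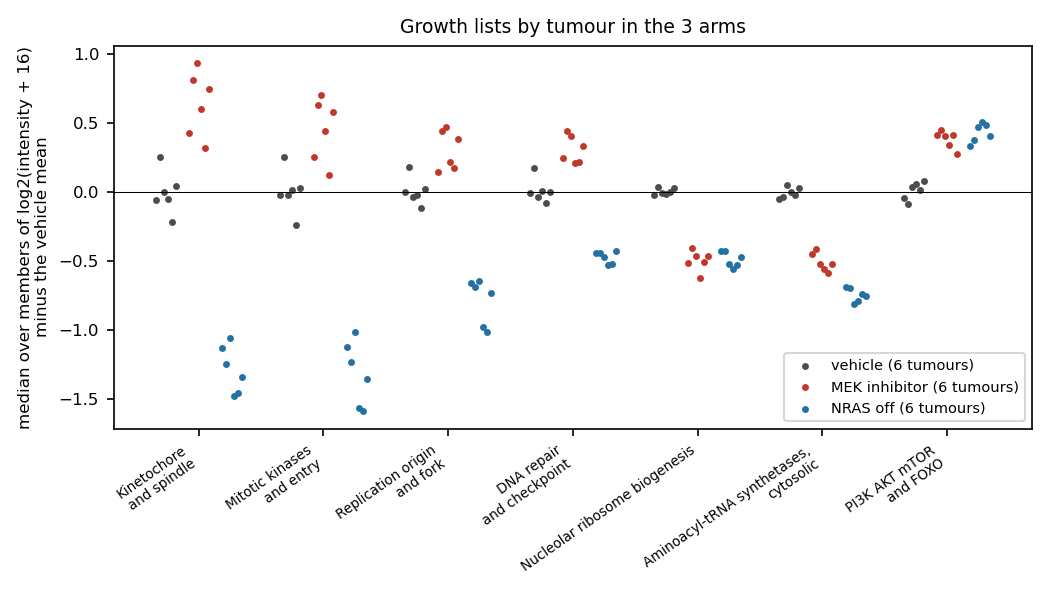
Level of 7 growth lists in each tumour of the 3 arms, as the median over members of log2(intensity + 16) minus the vehicle mean. Kinetochore, mitotic, replication and repair lists lay above 0 in the inhibitor tumours (red) and below 0 in the NRAS-off tumours (blue), while nucleolar and synthetase lists lay below 0 in both.

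The ERK readouts differed between the treated arms gene by gene. Dusp6 lay at 786 to 1667 (median 1117) in NRAS-off tumours, or −1.13 ± 0.14 from the inhibitor tumours (limma adjusted p = 1.43e-06). Dusp4 lay at 136 to 329 (median 218) (−1.94 ± 0.17, limma adjusted p = 3.26e-08) and Ccnd1 at 1537 to 2545 (median 1838) (−2.08 ± 0.13, limma adjusted p = 2.66e-10). These were lower with NRAS off than under the inhibitor. Egr2 was the reverse, at 642 to 997 (median 828) in NRAS-off tumours, or 1.32 ± 0.14 from the inhibitor tumours (limma adjusted p = 2.51e-07). Dusp5 lay at 205 to 272 (median 241), and its difference did not pass (0.10 ± 0.17, limma adjusted p = 0.668). Of 19 feedback genes 10 were lower and 3 higher in NRAS-off than in inhibitor tumours (median −0.35).

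**Figure D4:**
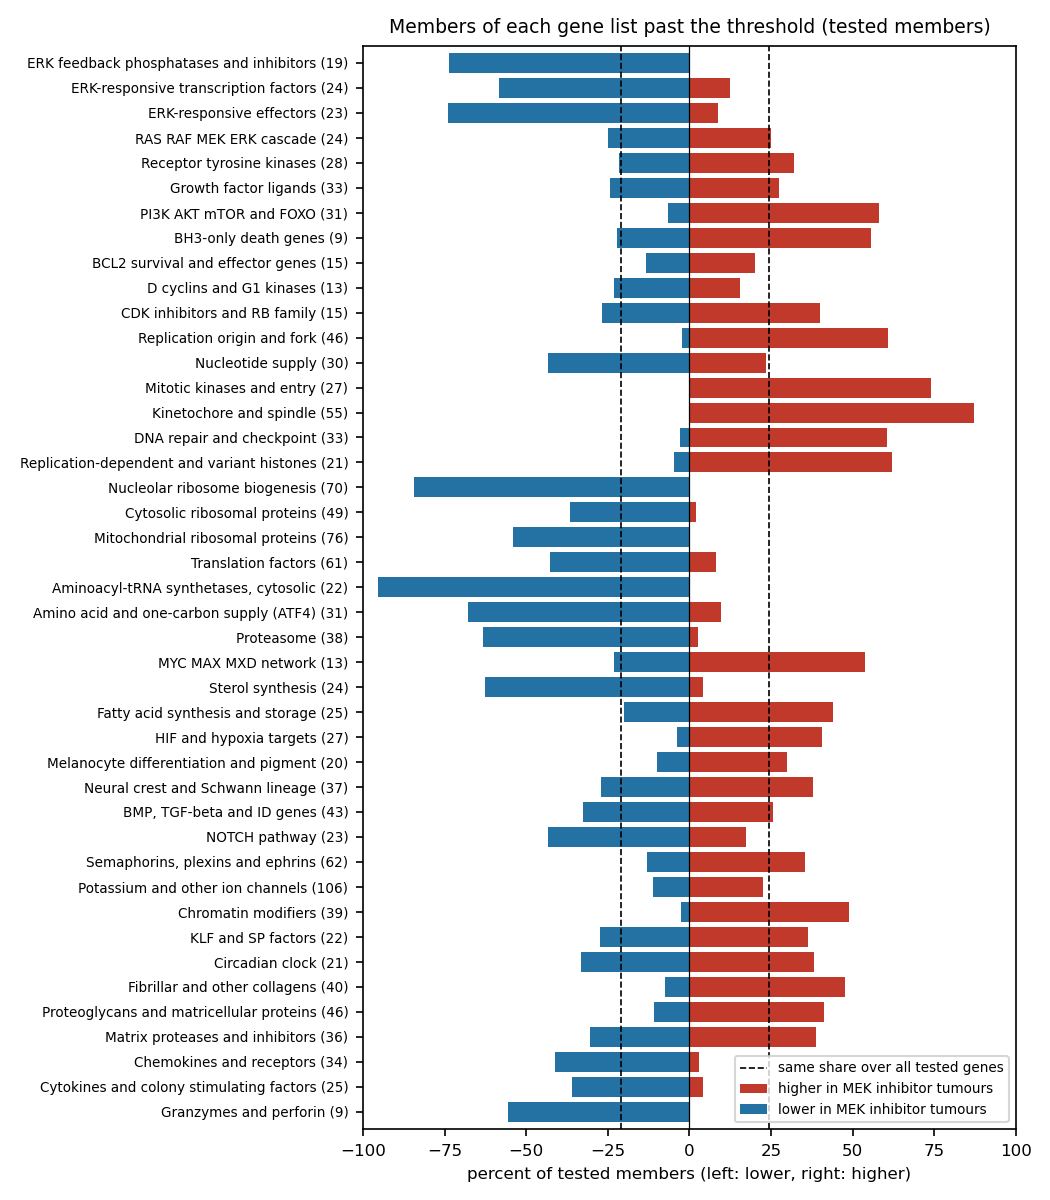
Percent of tested members of each gene list that were higher (red, to the right) or lower (blue, to the left) in MEK inhibitor than in vehicle tumours, with the number tested in brackets. Dashed lines mark the same percentages over all 15005 genes, 24.3 higher and 20.9 lower.

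Lipid and oxygen genes changed selectively. Of 24 genes of sterol synthesis and uptake 15 fell and 1 rose (median −0.30). Msmo1, a sterol oxidase, read between 779.7 and 1334 (median 1107) in the vehicle tumours and between 265 and 407 (median 324) in the MEK inhibitor tumours and fell by 1.65 ± 0.12, the demethylase gene Cyp51 fell by 1.20 ± 0.14, and the epoxidase gene Sqle fell by 1.04 ± 0.15. Of 25 fatty acid genes 11 rose and 5 fell (median 0.17), and the desaturase gene Fads2 read between 283 and 561 (median 361) in the vehicle tumours and between 818 and 1167 (median 1037) in the MEK inhibitor tumours and rose by 1.38 ± 0.14. Srebf1, a regulator of fatty acid synthesis, rose by 0.58 ± 0.10. The triglyceride lipase gene Pnpla3 read between 88.8 and 195 (median 119) in the vehicle tumours and between 469 and 1749.8 (median 714) in the MEK inhibitor tumours and rose by 2.54 ± 0.29. Of 27 hypoxia genes 11 rose and 1 fell (median 0.23), with Ndrg1 at 1.09 ± 0.11 and the peptide gene Adm at 0.97 ± 0.17, while Hif1a, the oxygen-sensing factor, did not pass (0.05, limma adjusted p = 0.505).

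Pigment cell genes moved modestly. Of 20 tested genes of melanocyte differentiation 6 rose and 2 fell (median 0.13), and Mitf did not pass (0.11, limma adjusted p = 0.218). The changed members of this list include a kinase gene of the cell cycle that is not a pigment cell gene. Sox10 rose by 0.50 ± 0.09, the melanosome motor gene Myo5a rose by 0.88 ± 0.13, and Pmel, a melanosome matrix protein, rose by 0.80 ± 0.27. Without inhibitor replicate 6 the call of Pmel ended (0.70, limma adjusted p = 0.0508). Of 8 melanocytic cell markers tested 3 rose and none fell (median 0.27). Their level lay between −0.13 and 0.068 in vehicle and between 0.071 and 0.42 in inhibitor tumours. The transcription factor genes Tfap2a and Tfap2b did not pass, at −0.10 and −0.13 (limma adjusted p = 0.544 and 0.718).

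Genes of the neural crest, from which pigment and Schwann cells arise, changed in both directions. Of 37 tested, 14 rose and 10 fell (median 0.21, or 0.00 with the mean of all probe sets per gene). Kcna1, a voltage-gated potassium channel of axons, had the largest rise of all genes whose arms did not overlap. It read between 69.6 and 178 (median 122.9) in the vehicle tumours and between 2399.7 and 3678 (median 2855) in the MEK inhibitor tumours, a 23.7-fold higher mean, and rose by 4.43 ± 0.15 (limma adjusted p = 6.81e-13). Gpr17, a receptor of oligodendrocyte precursors, read between 50.4 and 108 (median 75.3) in the vehicle tumours and between 273 and 691 (median 416) in the MEK inhibitor tumours and rose by 2.35 ± 0.29. The glial factor genes Sox2 and Sox6 rose by 0.99 ± 0.18 and 1.14 ± 0.14, and the Schwann lineage cadherin gene Cdh19 rose by 1.22 ± 0.10. Neuronal filament genes went down. Nefm read between 1469 and 1855 (median 1731) in the vehicle tumours and between 171 and 355 (median 261) in the MEK inhibitor tumours and fell by 2.67 ± 0.15, Nefl fell by 2.02 ± 0.18, and the tubulin regulator gene Stmn2 fell by 1.67 ± 0.28. Of the 5 Schwann cell markers tested, 4 rose (median 1.04), Pmp22 by 0.83 ± 0.13 among them, and their level lay between −0.16 and 0.57 in vehicle and between 0.63 and 1.45 in inhibitor tumours. The part of nerve cells in these changes was not tested.

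Ion channels as a list changed less often than all genes. Of 106 tested potassium, sodium, calcium and other ion channels 24 rose and 12 fell (median −0.01), or 34.0% in either direction against 45.2% over all genes. Besides Kcna1, the related channel genes Kcna4 and Kcna6 rose by 1.89 ± 0.24 and 1.35 ± 0.09. Of 62 semaphorins, plexins, ephrins and related guidance genes 22 rose and 8 fell (median 0.18). Sema4f read between 174 and 351 (median 205) in the vehicle tumours and between 801 and 1313 (median 899) in the MEK inhibitor tumours and rose by 2.01 ± 0.16. The secreted semaphorin genes Sema3d, Sema3e and Sema3c rose, by 1.61 ± 0.20, 1.08 ± 0.15 and 0.99 ± 0.15, while the membrane-anchored Sema7a fell by 1.41 ± 0.11.

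Chromatin modifiers rose more often than they fell. Of 39 chromatin modifiers 19 rose and 1 fell (median 0.16). Hdac9, a class II deacetylase, read between 56.0 and 106 (median 71.8) in the vehicle tumours and between 397 and 741 (median 488) in the MEK inhibitor tumours and rose by 2.62 ± 0.15, and Tet1, which oxidises methylated cytosine, read between 19.1 and 26.9 (median 24.5) in the vehicle tumours and between 104 and 322 (median 183) in the MEK inhibitor tumours and rose by 2.37 ± 0.18. The vehicle values of Tet1 lay near the filter intensity of 23.5, so the size of its rise depends on background and on the pseudocount. The Polycomb genes Cbx7 and Rnf2 rose by 1.09 ± 0.11 and 0.64 ± 0.07. Of 22 KLF and SP zinc finger factors 8 rose and 6 fell (median 0.01), with Klf5 at −2.28 ± 0.14, Klf10 at −1.64 ± 0.08 and Klf11 at 0.96 ± 0.07. Of 21 clock genes 8 rose and 7 fell (median 0.19, with 4 higher under the mean of all probe sets). Arntl, which encodes the clock activator BMAL1, fell by 1.22 ± 0.13, and the repressor gene Cry2 rose by 0.52 ± 0.07.

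Matrix genes rose, with fibroblast markers. Of 40 collagen chains 19 rose and 3 fell (median 0.35), and of 46 proteoglycans and matricellular genes 19 rose and 5 fell (median 0.31). Col1a1, the main chain of type I collagen, read between 2556 and 4791 (median 3669) in the vehicle tumours and between 7689.6 and 12522 (median 9849) in the MEK inhibitor tumours and rose by 1.40 ± 0.14. Col20a1 read between 129 and 292 (median 182) in the vehicle tumours and between 1035 and 1382 (median 1164) in the MEK inhibitor tumours and rose by 2.52 ± 0.19, and Fmod, which encodes the fibril-binding proteoglycan fibromodulin, read between 204 and 481 (median 307) in the vehicle tumours and between 1094 and 4502 (median 1577) in the MEK inhibitor tumours and rose by 2.52 ± 0.26. The proteoglycan genes Ogn, Dcn and Lum rose, by 1.68 ± 0.25, 1.06 ± 0.12 and 1.03 ± 0.10, and the matrix signals Cilp and Postn by 1.64 ± 0.21 and 1.53 ± 0.10. Of 16 fibroblast markers 10 rose and 1 fell (median 0.51). Their level lay between −0.08 and 0.32 in vehicle and between 0.47 and 0.59 in inhibitor tumours, and their part in the matrix changes was not tested. The falling marker was Pdgfra (−0.70 ± 0.08), and Fap did not pass (0.08, limma adjusted p = 0.589).

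Matrix proteases and their inhibitors changed in both directions. Of 36 proteases and inhibitors 14 rose and 11 fell (median 0.02), and all 11 falls were without overlap. Mmp10, a stromelysin, fell by 1.76 ± 0.33, the gelatinase gene Mmp9 fell by 1.95 ± 0.42, and the inhibitor gene Timp1 fell by 1.52 ± 0.13. Mmp1a, an interstitial collagenase gene not on the list, read between 153 and 626 (median 273) in the vehicle tumours and between 11.7 and 29.0 (median 22.7) in the MEK inhibitor tumours and fell by 3.01 ± 0.21. Its inhibitor values lay near the filter intensity of 23.5, so the size of this fall depends on background and on the pseudocount. Reck, a membrane inhibitor of matrix proteases, read between 613 and 1064 (median 895) in the vehicle tumours and between 2219 and 3253 (median 2720.2) in the MEK inhibitor tumours and rose by 1.60 ± 0.13. Among the smaller rises, named after their values were seen, were the gelatinase gene Mmp2 (0.57 ± 0.07) and the collagenase activator gene Mmp14 (0.30 ± 0.06).

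Transcripts of macrophages and mast cells fell. Among 18 tested markers of macrophages 15 fell, 5 of them without overlap, none rose, and the median was −0.94. Msr1, a scavenger receptor, read between 374 and 694 (median 493) in the vehicle tumours and between 78.0 and 172 (median 92.2) in the MEK inhibitor tumours and fell by 2.05 ± 0.20 (limma adjusted p = 1.3e-07). Cd68, a lysosomal membrane protein of phagocytes, read between 806 and 1219 (median 1076) in the vehicle tumours and between 188 and 734 (median 503) in the MEK inhibitor tumours and fell by 1.28 ± 0.26, and the mannose receptor gene Mrc1 fell by 1.52 ± 0.28. The macrophage growth factor receptor gene Csf1r read between 3882 and 6009 (median 4028) in the vehicle tumours and between 3194 and 5516 (median 4777) in the MEK inhibitor tumours and did not pass (0.03, limma adjusted p = 0.896). The level of the list lay between −0.30 and 0.30 in vehicle and between −1.60 and −0.35 in inhibitor tumours. Of 13 mast cell markers 11 fell and none rose (median −1.01). The mast cell protease gene Mcpt8, also a basophil gene, read between 148 and 304 (median 182) in the vehicle tumours and between 26.4 and 34.3 (median 32.9) in the MEK inhibitor tumours and fell by 2.08 ± 0.13, Mcpt1 fell by 1.97 ± 0.23 and the tryptase gene Tpsab1 fell by 1.31 ± 0.31. With inhibitor values near the filter intensity of 23.5, the size of the Mcpt8 fall depends on background and on the pseudocount. The mast cell factor gene Gata2 did not pass (−0.03, limma adjusted p = 0.822).

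Genes of chemokines, their receptors, cytokines and granzymes fell more often than they rose. The part of macrophages and mast cells in these falls was not tested. Of 34 chemokines and receptors 14 fell and 1 rose (median −0.41). Ccr1, a chemokine receptor of myeloid cells, read between 313 and 383 (median 348) in the vehicle tumours and between 37.5 and 60.8 (median 45.0) in the MEK inhibitor tumours and fell by 2.54 ± 0.17. The chemokine genes Ccl12, Cxcl13 and Cxcl14 changed by −2.14 ± 0.30, −2.09 ± 0.39 and −2.07 ± 0.18, while the stromal chemokine gene Cxcl12 did not pass (0.05, limma adjusted p = 0.861). Of 25 cytokines and colony stimulating factors 9 fell and 1 rose (median −0.10), among them Tnfsf11, which encodes RANKL (−1.98 ± 0.34), Il11 (−1.90 ± 0.14) and Il34, another ligand of the CSF1 receptor (−1.46 ± 0.10). Of 9 granzyme and perforin genes 5 fell and none rose (median −1.01), among them Gzmd (−1.72 ± 0.28) and Gzme (−1.35 ± 0.26). None of 14 NK, T and B cell markers passed (median −0.07), and 1 of 8 tested neutrophil markers and 1 of 8 dendritic cell markers fell, namely Mmp9 and Itgax (−1.02 ± 0.27).

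Vessel markers changed singly. Of 15 endothelial markers 3 rose and 2 fell (median 0.08). Flt1, which encodes VEGF receptor 1, read between 1182 and 3218 (median 2166) in the vehicle tumours and between 250.5 and 372 (median 327) in the MEK inhibitor tumours and fell by 2.67 ± 0.16. Eng rose by 0.45 ± 0.08 and Plvap did not pass (0.08, limma adjusted p = 0.734). Of 5 lymphatic markers 3 fell and none rose (median −0.38), and Lyve1, which tissue macrophages also express, fell by 2.06 ± 0.32. Of 13 markers of pericytes and smooth muscle 3 rose and 3 fell (median 0.06), with the actin gene Acta2 at 1.11 ± 0.16 and the proteoglycan gene Cspg4 at −0.82 ± 0.10. In NRAS-off tumours Flt1 lay at 136 to 194 and Cspg4 at 230 to 333, both below the vehicle tumours. The medians of their lists against vehicle were 0.78 for endothelial and 0.31 for pericyte markers there. Which cells carried the Flt1 and Cspg4 transcripts was not tested.

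All 14 skeletal muscle markers rose (median 1.41). Myh1, a fast myosin heavy chain, read between 169 and 2408 (median 1180.4) in the vehicle tumours and between 3556 and 7960.1 (median 4773) in the MEK inhibitor tumours and rose by 2.38 ± 0.42 (limma adjusted p = 0.000139). Tnnc2, a fast troponin, rose by 1.61 ± 0.34. The level of the list lay between −1.18 and 0.97 in vehicle and between 1.03 and 2.32 in inhibitor tumours, so the vehicle tumours spread widely. Of 7 adipocyte markers 1 rose, the lipase gene Lpl (0.81 ± 0.20). None of 14 keratinocyte markers passed. Krt14, a basal keratin, read between 21.5 and 41.5 (median 32.7) in the vehicle tumours and between 18.3 and 161 (median 28.6) in the MEK inhibitor tumours (0.26, limma adjusted p = 0.846). The only red blood cell marker tested, Alas2, did not pass (0.06, limma adjusted p = 0.665).

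**Figure D5:**
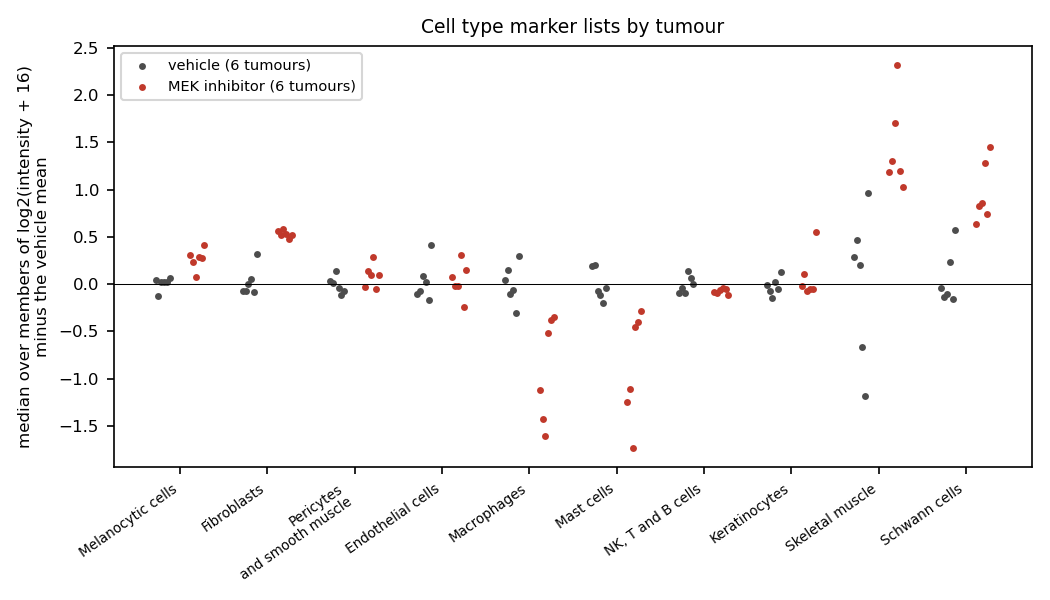
Level of cell type marker lists in each of 6 vehicle (grey) and 6 MEK inhibitor tumours (red), as the median over tested markers of log2(intensity + 16) minus the vehicle mean. Macrophage and mast cell lists were lower and fibroblast, skeletal muscle and Schwann cell lists higher in every inhibitor tumour than in any vehicle tumour. The melanocytic list was higher without overlap by a narrow gap, from 0.068 in vehicle to 0.071 in inhibitor tumours.

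Muscle isoforms moved with these markers in the energy lists, and their part was not tested. Of 89 genes of oxidative phosphorylation 8 rose and 18 fell (median −0.05), and the rises included the muscle subunit genes Cox6a2 (0.65 ± 0.16), Cox7a1 (0.87 ± 0.17) and Cox8b (0.93 ± 0.28). In glycolysis 8 of 26 rose and 9 fell (median −0.08), with the muscle phosphofructokinase gene Pfkm at 0.88 ± 0.18, the lactate transporter gene Slc16a1 at −1.09 ± 0.08 and the glucose transporter gene Slc2a3 at −1.04 ± 0.14. In the citric acid cycle 5 of 22 rose and 8 fell (median −0.06).

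Signalling families outside the cascade held some of the largest changes. Nppb, which encodes a natriuretic peptide, had the largest fall of all genes whose arms did not overlap. It read between 2906 and 4903 (median 3359.7) in the vehicle tumours and between 119 and 282 (median 217) in the MEK inhibitor tumours, a 17.9-fold lower mean, and fell by 4.09 ± 0.18 (limma adjusted p = 9.04e-12). The cyclic GMP kinase gene Prkg2 fell by 1.40 ± 0.19, and of 15 genes of this system 5 rose and 6 fell (median 0.02). Rgs2, a regulator of G protein signalling, read between 367 and 486 (median 425) in the vehicle tumours and between 2061 and 5475 (median 3104) in the MEK inhibitor tumours and rose by 2.83 ± 0.20, while of 15 RGS genes 4 rose and 6 fell (median −0.04). Rcan2, which inhibits the phosphatase calcineurin, read between 86.8 and 137 (median 114) in the vehicle tumours and between 933 and 1853 (median 1301) in the MEK inhibitor tumours, a 12.4-fold higher mean, and rose by 3.42 ± 0.17. Of 12 S100 calcium-binding proteins 1 rose and 4 fell (median −0.07), and S100a3 read between 4328 and 7538 (median 5768) in the vehicle tumours and between 569 and 1070.0 (median 886) in the MEK inhibitor tumours and fell by 2.78 ± 0.19. Arg1, the arginase of myeloid cells and urea synthesis, read between 282 and 1147 (median 606) in the vehicle tumours and between 44.0 and 153 (median 70.0) in the MEK inhibitor tumours and fell by 2.63 ± 0.46, within a polyamine list in which 2 of 12 rose and 7 fell (median −0.19). Upp1, a uridine phosphorylase, read between 4267 and 5115 (median 4456) in the vehicle tumours and between 632 and 1094 (median 793) in the MEK inhibitor tumours and fell by 2.47 ± 0.12.

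The remaining genes among the 20 largest rises without overlap were Efhd1, C1qtnf3, Ntng1, Cdh10, Penk, Lrrc15, Shroom2 and Plekhg1. Ntng1, a netrin-related axon guidance protein, read between 54.8 and 104 (median 87.3) in the vehicle tumours and between 603 and 979 (median 778) in the MEK inhibitor tumours and rose by 2.98 ± 0.14. Efhd1, a mitochondrial calcium-binding protein, read between 52.6 and 82.9 (median 72.2) in the vehicle tumours and between 543 and 1043 (median 635) in the MEK inhibitor tumours and rose by 3.05 ± 0.13. Both were low in all vehicle tumours. Lrrc15, a membrane protein of activated fibroblasts, rose by 2.63 ± 0.23, the adipokine-related gene C1qtnf3 rose by 3.02 ± 0.29 and the cadherin gene Cdh10 rose by 2.83 ± 0.17. The opioid precursor gene Penk read between 319 and 1099.9 (median 372) in the vehicle tumours and between 1287 and 7163 (median 3430.0) in the MEK inhibitor tumours and rose by 2.76 ± 0.53, with the inhibitor tumours spread widely. Shroom2 and Plekhg1 rose by 2.54 ± 0.16 and 2.50 ± 0.13. The remaining large falls were Ucn2 (−2.75 ± 0.31), a corticotropin-releasing factor family peptide, Acsbg1 (−2.55 ± 0.18), an acyl-CoA synthetase, and Bpifc (−2.46 ± 0.15). With inhibitor values of 22.9 to 30.7, near the filter intensity of 23.5, the size of the Bpifc fall depends on background and on the pseudocount.

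The other lists counted had higher and lower members as follows. WNT genes had 13 higher and 11 lower of 46 (median 0.07), with the nuclear factor gene Lef1 at −1.57 ± 0.11, the receptor gene Lgr6 at −1.75 ± 0.17 and the inhibitor gene Dkk2 at −1.60 ± 0.20. JAK, STAT and SOCS genes had 8 higher and 7 lower of 26 (median 0.03), with the cytokine inhibitor gene Socs2 at −1.66 ± 0.11. YAP and TEAD genes had 10 higher and 5 lower of 22 (median 0.03), p53 targets 9 and 7 of 25 (median 0.02), and lysosomal genes 12 and 15 of 38 (median 0.04). Type I interferon response genes had 7 higher and 1 lower of 37 (median 0.08), antigen presentation genes 1 and 5 of 19 (median −0.18), and complement genes 3 and 7 of 17 (median −0.20). Heat shock and cytosolic chaperone genes had 1 higher and 13 lower of 28 (median −0.16), and chaperones of the endoplasmic reticulum 6 and 3 of 23 (median −0.01). Integrins and cadherins had 9 higher and 9 lower of 39 (median −0.04), collagen processing genes 9 and 2 of 19 (median 0.23), SOX factors 5 and 1 of 17 (median 0.07) and HOX genes 3 and 2 of 24 (median 0.08), or 5 to 6 higher without any 1 of inhibitor replicate 6 and vehicle replicates 3, 4 and 6. Oncofetal and imprinted genes had 8 higher and 2 lower of 15 (median 0.48), with the imprinted gene Peg3 at 1.68 ± 0.19 and Mest at 1.62 ± 0.19. Drug transport and detoxification genes had 5 higher and 11 lower of 25 (median −0.14), with the retinaldehyde dehydrogenase gene Aldh1a3 at −1.84 ± 0.14.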

How the data were processed

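RNA of each tumour was biotinylated and hybridised to a one-colour Affymetrix array, per the labels' protocols. The deposited table holds the authors' probe set intensity values for 45037 probe sets and 18 arrays, read as linear because all were positive and ran far past any log2 scale. The submitters' processing notes name MAS5 and RMA without saying which made the table. If another transformation was used, fold changes are on another scale. Batches were not tested, as the labels name none.

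By the platform annotation 34945 probe sets had 1 gene symbol, 932 several and 9160 none. Of 18193 genes 9010 had several probe sets, and each gene was read by its most intense probe set. The scale was log2(intensity + 16), and 15005 genes above the 25th percentile of probe set means (intensity 23.5) were kept. The pseudocount understates changes of low genes. All 18 tumours of 3 arms entered 1 limma model (version 3.58.1, R 4.3.3; 15 residual and 3.46 prior degrees of freedom), with Benjamini-Hochberg adjusted p under 0.05 over all genes tested. The fit was tested on simulated data with known changes.

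The members, 66 gene lists and 15 marker lists were chosen with earlier results of these data known, so no list is independent support. Lists are described by counts and medians, with no set test. Genes were named by a rule: the 20 largest rises and falls without overlap, up to 5 changed members and 2 intense unchanged members per list, and a fixed set. From these, genes to describe were picked after their values were seen. Outside the rule, Nop2 was named for its promoter, and Epgn, Egf, Tgfa, Mmp2 and Mmp14 after their values were seen. Promoters came from the RefSeq table (GRCm38.p6, 32851 promoters). Besides the 5 motifs named in the report, the AP-1 motif TGANTCA and the FOXO motif GTAAACA were searched, 7 in all and on both strands, and those described were chosen after the shares were seen. Plots were made in Python 3.11.15 with matplotlib 3.10.9.

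The results were recomputed with a replicate block, without each tumour in turn, with only the 2 arms compared, with a trended robust prior, with pseudocounts of 64 and 1, after quantile normalization or median centring, with each gene as the mean of its probe sets, and with the filter at the 50th percentile or left out.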

Additional observations from a re-analysis of the deposited data

Results flagged for a closer look

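Values are intensities. Each gene named in the text was looked at in both arms, 496 pairs of gene and arm in all, and in 34 of them 1 tumour stood apart from the other 5 on the log2 scale, with a gap over 0.625 of the arm's range. By chance about 1 in 20 arms of 6 would be marked this way.

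Vehicle replicate 1 stood apart for Axl at 7302 (above 5549 to 6082 in the others), Mcpt8 at 304 (above 148 to 188 in the others) and Sema3c at 337 (below 448 to 503 in the others). Vehicle replicate 2 was set off by Brca1 at 301 (above 194 to 212 in the others), Mmp10 at 653 (above 143 to 247 in the others) and Rps29 at 31712 (below 32915 to 33386 in the others). Vehicle replicate 4 was apart in Akt1 at 2454 (above 2103 to 2218 in the others) and Dusp1 at 1038 (below 1308 to 1437 in the others). Vehicle replicate 6 lay outside its arm for Csf1r at 6009 (above 3882 to 4078 in the others), Dusp10 at 749 (below 1140.2 to 1267 in the others), Dusp4 at 4295 (below 5557 to 6040.3 in the others), Eif4ebp1 at 3928 (above 3311 to 3521 in the others), Fgf13 at 204 (below 358 to 447 in the others) and Sema4f at 351 (above 174 to 219.8 in the others).

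Inhibitor replicate 1 stood apart for Aldh1a3 at 1074 (below 1439 to 1639 in the others), Dab2ip at 1048 (above 859 to 920.2 in the others), Fmod at 4502 (above 1094 to 1793 in the others), Gzmd at 176 (below 425 to 582 in the others), Lrrc15 at 2258 (above 1189 to 1341 in the others) and Mmp2 at 12787 (above 10639.8 to 10962 in the others). Inhibitor replicate 2 was set off by Ogn at 1261 (below 1583 to 1792 in the others), Rps25 at 874 (above 745 to 788 in the others) and Sema4f at 1313 (above 801 to 926 in the others). Inhibitor replicate 3 differed from the rest by Mcpt8 at 26.4 (below 31.5 to 34.3 in the others). Inhibitor replicate 4 was apart in Bmp2 at 216 (below 319.5 to 357 in the others), Cox6a2 at 542 (above 292 to 343 in the others), Egf at 68.4 (above 40.3 to 48.0 in the others), Eif4ebp1 at 1627 (below 2008 to 2216 in the others), Pfkm at 1728 (above 917 to 1046 in the others), Smad4 at 4127 (below 4498 to 4640.3 in the others) and Tnfsf11 at 69.7 (below 159 to 248 in the others). Inhibitor replicate 5 stood alone for Cdh19 at 10429 (above 7713 to 8483 in the others) and Mki67 at 2046 (below 2774 to 3329 in the others). Inhibitor replicate 6 lay outside its arm for Krt14 at 161 (above 18.3 to 44.6 in the others).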

How the results depend on the processing

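The pseudocount and the single probe set per gene set the scale of every change, probe sets near the filter carry little signal over background, and the 6 tumours per arm come from 1 line. Whether the deposited values come from MAS5 or RMA is not given in the sources used here, nor is any batch.

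Under the alternatives that keep all tumours, 3254 to 3729 genes were higher and 2964 to 3364 lower, and leaving out 1 tumour gave 3350 to 3643 higher and 2962 to 3075 lower. Of the 6763 calls that could be set against the mean of all probe sets per gene, 5843 were kept and 30 turned, and under the other alternatives none turned. For the 248 genes named, 10 results passed only under an alternative (Pcna, Cdkn1b, Map2k2 and Npm1), 26 lost their call (Pmel, Egf and Epgn), and none was reversed.

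The labels number the tumours 1 to 6 in each arm. With the replicate number as a block 3614 genes were higher and 3105 lower, 6516 of 6787 calls were kept, and of the genes named Pcna passed (0.18, limma adjusted p = 0.0372), and Egf (0.22, limma adjusted p = 0.0551) and Epgn (−0.57, limma adjusted p = 0.0505) no longer did. The deviations of same-numbered tumours correlated at −0.118, 0.109, 0.198, −0.136, 0.273 and 0.255, and 2 of these lay below 0, so the numbers were not taken as a pairing. That 4 of 6 vehicle tumours correlated best with their own number is a hint from the data of a shared effect, which the labels do not describe.

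The following list medians moved by more than the SD of the list's level between inhibitor tumours, and the cause was not tested. With a filter at the 50th percentile, which tests fewer genes, ERK-responsive transcription factors had −0.57, growth factor ligands −0.011, histones 0.43, cytokines −0.35, collagens 0.59, proteoglycans 0.45, semaphorins 0.22, ion channels 0.087, S100 proteins −0.21, SOX factors 0.19, HOX genes 0.16, granzymes −1.35, lymphatic markers −0.70, neutrophil markers −0.56 and dendritic cell markers −0.35. With the mean of all probe sets, growth factor ligands had −0.0052, PI3K and FOXO genes 0.34, BCL2 genes −0.059, ATF4 genes −0.41, ER chaperones −0.067, the proteasome −0.14, the MYC network 0.19, fatty acid genes 0.12, neural crest genes 0.0012, oncofetal genes 0.36, WNT genes −0.0047, YAP genes −0.067, clock genes 0.081, JAK and STAT genes −0.047, chemokines −0.24, collagen processing 0.16, semaphorins 0.10, RGS genes −0.15, fibroblast markers 0.75 and lymphatic markers −0.16. Without a filter, histones had 0.19, oncofetal genes 0.16, semaphorins 0.13 and granzymes −0.36. A pseudocount of 1 gave 0.21 for melanocyte genes and −1.35 for granzymes, and a pseudocount of 64 gave 0.25 for histones, −0.39 for ATF4 genes, 0.12 for semaphorins, −0.52 for granzymes and −0.040 for NK, T and B cell markers. Quantile normalization gave −0.021 for the citric acid cycle and 0.054 for JAK and STAT genes.

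Leaving out 1 tumour at a time moved the median of JAK and STAT genes between 0.010 and 0.066, of collagens between 0.26 and 0.37, of semaphorins between 0.14 and 0.20, of histones between 0.27 and 0.40, of BMP and TGF-beta genes between −0.11 and −0.012, of neural crest genes between 0.13 and 0.25, of WNT genes between −0.0029 and 0.093 (lowest without vehicle replicate 1), of NK, T and B cell markers between −0.090 and −0.029, of polyamine genes between −0.22 and −0.18, of melanocytic markers between 0.18 and 0.41 and of fibroblast markers between 0.48 and 0.64. Other medians moved by over 1.5 times. Without vehicle replicate 6 complement genes had −0.078, without inhibitor replicate 2 antigen presentation genes had −0.12, and without inhibitor replicate 4 growth factor ligands had 0.048. The range was 0.012 to 0.12 for type I interferon genes (lowest without inhibitor replicate 5), −0.16 to −0.024 for glycolysis (vehicle replicates 3 and 2), −0.16 to −0.071 for cytokines (lowest without vehicle replicate 3), 0.047 to 0.12 for HOX genes (lowest without inhibitor replicate 4), 0.040 to 0.12 for pericyte markers (highest without inhibitor replicate 1), 0.0013 to 0.11 for endothelial markers (lowest without vehicle replicate 5) and −0.10 to −0.021 for neutrophil markers (vehicle replicate 5 and inhibitor replicate 3). Keratinocyte markers turned from 0.14 to −0.059 without inhibitor replicate 6, and the single red blood cell marker ranged from 0.023 to 0.12 with no call.

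List counts moved by over 1.5 times as follows, from those in the report. With the mean of all probe sets 4 of 21 clock genes, 5 of 26 JAK and STAT genes, 2 of 24 cascade genes and 6 of 22 YAP genes were higher, against 8, 8, 6 and 10. By the same reading 8 of 23 ER chaperones, 2 of 19 antigen presentation genes and 5 of 13 pericyte markers were lower, against 3, 5 and 3. With only the arms compared 5 of 40 collagens were lower, against 3, and after quantile normalization 10 of 49 cytosolic ribosomal proteins, against 18.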

Other observations

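The inhibitor tumours differed among themselves in the markers of myeloid and mast cells. Macrophages, as the median over the 18 markers of log2(intensity + 16) minus the vehicle mean, lay at −1.12, −1.43 and −1.60 in inhibitor replicates 1, 2 and 3 and at −0.52, −0.38 and −0.35 in replicates 4, 5 and 6. Mast cells, over 13 markers, lay at −1.25, −1.11 and −1.73 in the former and at −0.45, −0.41 and −0.29 in the latter. The labels give nothing that separates these tumours beyond their numbers.

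Skeletal muscle, over 14 markers, lay at 0.28, 0.47, 0.20, −0.67, −1.18 and 0.97 in vehicle replicates 1 to 6 and at 1.19, 1.30, 1.71, 2.32, 1.19 and 1.03 in inhibitor replicates 1 to 6. Inhibitor replicate 4, with the highest muscle level, was also the tumour set apart for the muscle genes Cox6a2 and Pfkm.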
